A study of Mus musculus with 6 samples.

Results

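The chemokine genes followed here in neoplastic cells of mouse lung tumours were Cxcl15, Cxcl5, Cxcl1, Cxcl2, Cxcl16, Ccl20 and Cx3cl1. They are 7 of the 31055 features of a single-cell RNA matrix and were chosen by symbol, as chemokines that airway and alveolar epithelium is known to make. Tumours were started in 6 mice by Lenti-Cre delivered into the trachea in 60 µL, grew for 20 weeks, and were collected after 2 weeks of tamoxifen in 4 mg doses or vehicle. All mice carried Lkb1XTR/XTR and a Rosa26LSL-tdTomato allele, so that the trapped form of Lkb1 (gene symbol Stk11) and the red fluorescent protein were shared by both groups. The 3 Restored mice carried Rosa26LSL-tdTomato/FLPo-ERT2, that is, in addition, a recombinase that tamoxifen activates to remove the trap, and all 3 received tamoxifen. Of the 3 NonRestored mice, 1 received tamoxifen without FLPo-ERT2, 1 received vehicle without it and 1 received vehicle with it. Dead cells and cells positive for CD45, CD31, F4/80 or Ter119 were sorted out before 10x 3′ sequencing, in which each captured transcript carries a unique molecular identifier (UMI).

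The matrix pooled the 6 mice, and no map from cells to mice was used here, so it counts as 1 sample. The comparison of Restored with NonRestored mice was not analysed here, and 3 mice against 3 could not have gone below an exact two-sided permutation p of 0.1. All values below compare cells within the pool, no p-value was computed, and each interval covers counting error only. Of 16017 cells, 12183 had at least 500 genes and at most 20% mitochondrial UMIs, with a median of 19348 UMIs a cell.

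Chemokines are small secreted proteins that draw leukocytes along a gradient by binding receptors on their surface. Cxcl15 (lungkine), Cxcl5, Cxcl1 and Cxcl2 belong to the ELR group of CXC chemokines, which recruit neutrophils, and Cxcl1 and Cxcl2 act through the receptor Cxcr2. Ccl20 binds Ccr6 on dendritic cells and some lymphocytes. Cxcl16 and Cx3cl1 (fractalkine) differ from the others in that they are made as membrane proteins and can be cut free by the proteases Adam10 and Adam17, and their receptors are Cxcr6 and Cx3cr1. Alveolar type II (ATII) cells make surfactant, alveolar type I (ATI) cells form the thin gas-exchange surface, and alveolar cells high in the keratins Krt8 and Krt18 are known from injured lung and from tumours.

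Cxcl5, Cxcl15, Cxcl1 and Cxcl2 lie together on chromosome 5 (GRCm38, GENCODE M21), all on the plus strand and each with 4 exons in its longest transcript. Cxcl5 occupies positions 90759360 to 90761624, Cxcl15 90794534 to 90803067, Cxcl1 90891241 to 90893115 and Cxcl2 90903871 to 90905938, and the span of 146579 bases holds 7 protein-coding genes, the other 3 being Ppbp, Pf4 and Cxcl3. Ccl20 lies on chromosome 1 (83116766 to 83119167, plus strand), Cxcl16 on chromosome 11 (70453983 to 70459984, minus strand) and Cx3cl1 on chromosome 8 (94772009 to 94782427, plus strand).

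Promoter windows from RefSeq (GRCm38.p6, 250 bases before to 50 after the start) were found for 5 of the 7 members, Cxcl15, Cxcl1, Cxcl2, Ccl20 and Cx3cl1. Stretches that end just before the gene are printed for Cxcl15, which nearly every ATII-like cell held, and for Cxcl1, Cxcl2 and Ccl20, which few held. Capitals mark matches, on either strand, to an NF-kB-type motif (GGGNNNNNCC) or to TATAAA. The stretches are chr5:90794414-90794533, chr5:90891125-90891240, chr5:90903779-90903870 and chr1:83116646-83116765, all on the plus strand, read 5′ to 3′.
Cxcl15: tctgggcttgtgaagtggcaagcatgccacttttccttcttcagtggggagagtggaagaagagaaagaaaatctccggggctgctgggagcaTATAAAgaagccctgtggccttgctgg
Cxcl1: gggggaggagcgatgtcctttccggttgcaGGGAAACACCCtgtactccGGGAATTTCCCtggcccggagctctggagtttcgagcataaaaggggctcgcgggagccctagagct
Cxcl2: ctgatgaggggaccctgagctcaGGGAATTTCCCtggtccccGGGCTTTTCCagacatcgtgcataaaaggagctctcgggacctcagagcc
Ccl20: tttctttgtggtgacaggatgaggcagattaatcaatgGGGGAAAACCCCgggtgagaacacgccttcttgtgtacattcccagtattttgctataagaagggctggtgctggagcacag

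Cxcl1, Cxcl2 and Ccl20 each held NF-kB-type matches between 61 and 97 bases before the start, some of them overlapping matches to both strands, and the windows of Cxcl15 and Cx3cl1 held none. This loose motif is common, with a match in 50.8% of 32851 promoter windows. The run GGGAATTTCCCTGG stands in both the Cxcl1 and the Cxcl2 stretch, and those were the only 2 of the 32851 windows that held it on either strand. TATAAA, which 13.6% of windows held, began 27 bases before the start of Cxcl15 and 6 before that of Cx3cl1. Cxcl2 also had a C/EBP-type match (TTNNGNAA, in 40.7% of windows) 236 bases before its start, and no window of a member held the AP-1-type TGANTCA (7.81% of windows). A match describes letters and does not show binding.

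**Figure D1:**
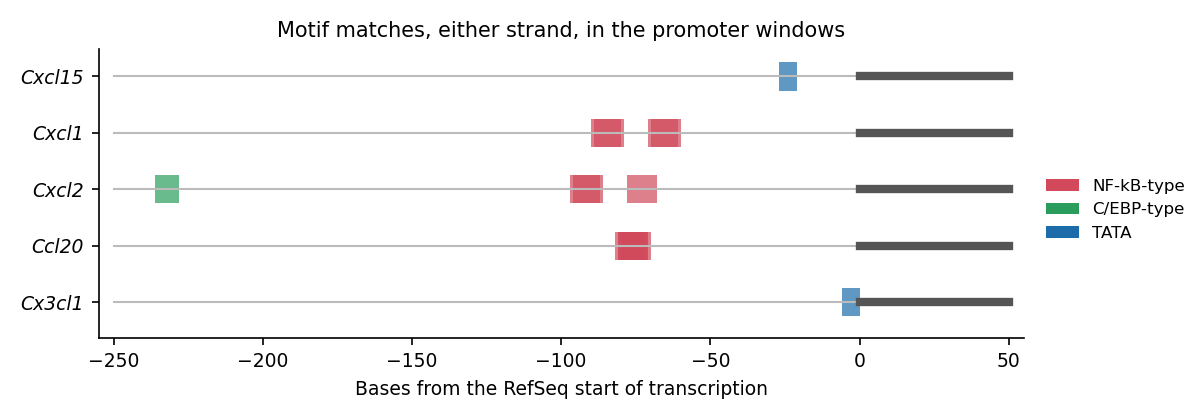
Position of motif matches in the promoter windows of 5 members, in bases from the RefSeq start of transcription. Coloured blocks are matches on either strand and the dark bar is transcribed sequence; Cxcl1, Cxcl2 and Ccl20 have NF-kB-type blocks between 61 and 97 bases before the start, and Cxcl15 and Cx3cl1 have none.

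Cells were then gated by level, in UMIs per 10000 UMIs of the cell. The ATII gate (Sftpc at least 500, Hopx under 2, Krt8 plus Krt18 under 50) held 6975 cells or 57.3%, the ATI gate (Hopx at least 15, same keratin limit) 956 cells, and the keratin-high gate (Krt8 plus Krt18 at least 50) 1183 cells. Markers that the gates did not use followed their names, since Lyz2 and Slc34a2 were highest in the ATII gate (136 and 27.4 per 10000), Ager and Rtkn2 in the ATI gate (59.0 and 1.79), and Krt7 and Krt19 in the keratin-high gate (23.0 and 19.2). Surfactant transcripts remained in the other gates, with Sftpc at 475 per 10000 in the ATI gate and 193 in the keratin-high gate. Endothelial, fibroblast and myeloid marker cells, 128, 259 and 79 in number, served as the reference for free RNA, and only 11, 2 and 3 cells over a limit of another cell type fell in the ATII, ATI and keratin-high gates.

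Cxcl15 marked the ATII gate. Its level there was 73.9 UMIs per 10000 (95% Poisson interval 73.8 to 74.0), against 6.69 (6.55 to 6.83) in the ATI gate and 4.07 (4.00 to 4.14) in the keratin-high gate, which is 11.0-fold (10.8 to 11.3) and 18.2-fold (17.9 to 18.5) lower. After thinning each cell to 5000 UMIs, 99.1% of 6772 ATII-gate cells had a Cxcl15 UMI, against 44.1% of 841 and 39.9% of 1090 cells in the other gates (99.4%, 64.0% and 70.4% without thinning). The ATII gate held 90.4% of all Cxcl15 UMIs of filtered cells. Cxcl15 was thus present in almost every ATII-gate cell, with a median of 60.7 per 10000 and a range from 14.9 at the 10th to 128 at the 90th percentile.

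In the other gates the Cxcl15 UMIs came from few cells. The median cell had 0.929 per 10000 in the ATI gate and 0.665 in the keratin-high gate, and 18 of 956 and 34 of 1183 cells held 50% of the UMIs, against 1328 of 6975 in the ATII gate. The reference cells had Cxcl15 levels of 1.48 (endothelial), 1.36 (fibroblast) and 2.44 (myeloid), and shares with a UMI of 25.9%, 19.1% and 27.1% after thinning, at median depths of 10049, 14616 and 23994 UMIs against 11796 in the ATI gate and 23490 in the keratin-high gate. Per 100 Sftpc UMIs there were 4.76 Cxcl15 UMIs in the ATII gate, 1.41 in the ATI gate, 2.11 in the keratin-high gate and 2.47 to 5.10 in the reference cells. The reference values rest on few cells too, since 1 endothelial cell held 176 of 246 UMIs, 1 fibroblast cell 244 of 566 and 10 myeloid cells 90.1% of 455, with cell medians of 0, 0 and 0.306 per 10000, so they do not stand for the typical reference cell. The part of free RNA in the ATI-gate and keratin-high levels was not tested.

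Cxcl16 ran the other way. Its level was 0.343 per 10000 (0.334 to 0.353) in the ATII gate, 1.24 (1.18 to 1.30) in the ATI gate and 1.61 (1.57 to 1.66) in the keratin-high gate, that is 3.61-fold (3.41 to 3.81) and 4.70-fold (4.52 to 4.89) higher. The share of cells with a UMI after thinning was 15.1%, 43.6% and 49.2%, and it was 12.3%, 29.9% and 20.0% in endothelial, fibroblast and myeloid marker cells, so that the ATII-gate share lay within the range of the reference cells. Fibroblast marker cells had Cxcl16 at 0.819 per 10000, and 5 of them held 10 or more UMIs, so they are no measure of free RNA for this gene. Unlike the Cxcl15 of those gates, Cxcl16 was spread over many cells: 149 ATI-gate and 182 keratin-high cells held 50% of its UMIs, and the 10 highest cells held 6.54% and 6.83%. Within the keratin-high gate the level was 1.59 in the 620 cells with low Hopx and 1.68 in the 127 cells with high Hopx. The protease Adam10 was higher in the ATI gate (1.04 against 0.481 per 10000) and in the keratin-high gate (1.19). Adam17 was 1.71-fold higher in the ATI gate (1.59 to 1.82) and 1.11-fold higher in the keratin-high gate (1.05 to 1.17), both under the fold limit. The median gene was itself higher in these gates, by 0.38 (ATI) and 0.39 (keratin-high) on the log2 scale. Adam17 in the keratin-high gate thus lay under the median gene.

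**Figure D2:**
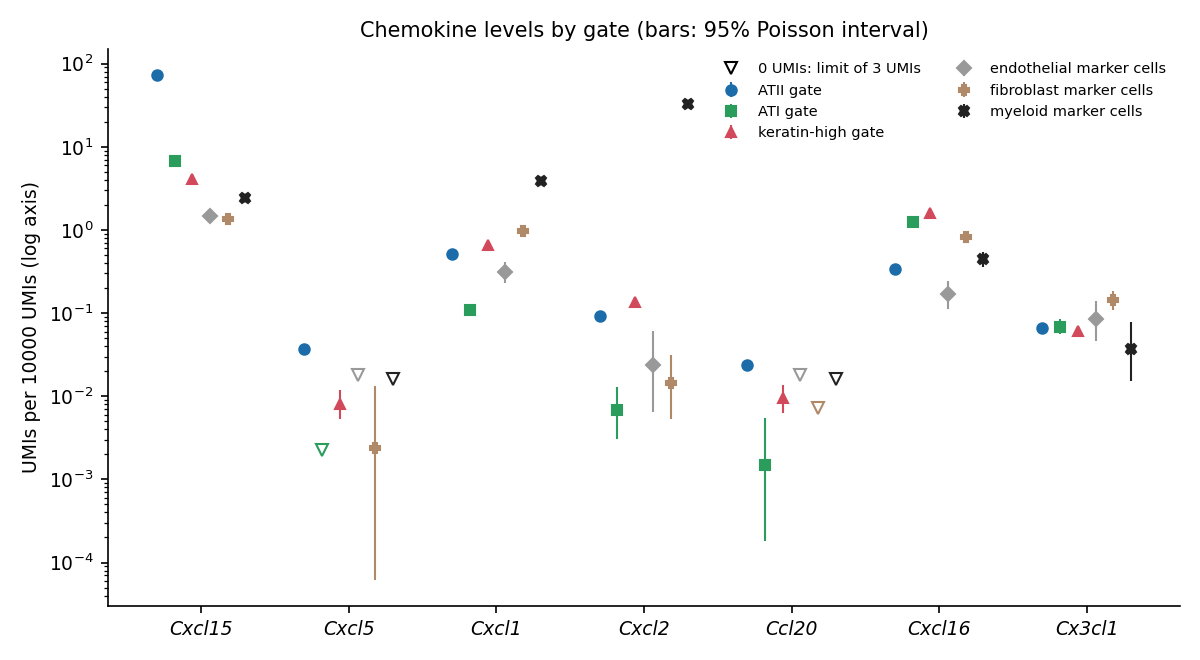
Level of each member, in UMIs per 10000 UMIs on a log axis, in the 3 epithelial gates and in marker cells of 3 other types, with 95% Poisson intervals and open triangles at the limit of 3 UMIs where none was counted. Cxcl15 drops from 73.9 in the ATII gate to 4.07 in the keratin-high gate, Cxcl16 climbs from 0.343 to 1.61, and Cxcl2 stands at 32.8 in myeloid marker cells.

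Cxcl1, a Cxcr2 ligand that inflamed epithelium makes, was found in a minority of cells. The ATII-gate level was 0.509 per 10000 (0.498 to 0.520) with a UMI in 10.6% of thinned cells, and 170 of 6975 cells held 50% of the UMIs. The keratin-high level was 0.665 (0.637 to 0.695) with 8.17% of cells, but 10 cells held 59.8% of those UMIs and 1 cell held 435 of the 2040. Leaving out the 1% of cells on each side with the most Cxcl1 UMIs turned the ratio of keratin-high to ATII from 1.31 to 0.708, so no direction is given. Both shares lay within the range of the reference cells, from 7.41% in endothelial to 38.6% in myeloid marker cells, some of which held 10 or more Cxcl1 UMIs themselves and so are no measure of free RNA for this gene. In the ATI gate the level was 0.109 (0.0924 to 0.129), 4.65-fold (3.95 to 5.52) below the ATII gate, and 10.4-fold lower without the top 1%. Of the 146 UMIs in the ATI gate, 10 cells held 69.9%, and the share of thinned cells was 2.50%.

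Cxcl2, the close relative of Cxcl1, was mostly a myeloid transcript in this pool. The 79 myeloid marker cells held 6135 of the 8254 UMIs of filtered cells (74.3%), at 32.8 per 10000 (32.0 to 33.7) and with a UMI in 84.3% of thinned cells, even though the sort had excluded CD45 and F4/80. The ATII gate had 1511 UMIs at 0.0935 per 10000 (0.0889 to 0.0984) and a UMI in 1.96% of cells, and the ATI gate had 9 UMIs. Of the 422 UMIs in the keratin-high gate, 1 cell held 220. The summed myeloid markers were at 0.0752, 0.0682 and 0.0691 per 10000 in the ATII, ATI and keratin-high gates, against 62.5 in the myeloid marker cells.

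Cxcl5 and Ccl20 were rare, and few cells held most of their UMIs. Cxcl5 had 688 UMIs in all filtered cells, 598 of them in 70 ATII-gate cells (1.00%), of which 3 held 50% and the highest held 139. The keratin-high gate had 25 UMIs in 9 cells and the ATI gate none, which puts the ATI level at least 16.5-fold below the ATII level of 0.0370 per 10000, at a limit of 3 UMIs over the gate. Ccl20 had 492 UMIs, 384 of them in 27 ATII-gate cells, where 10 cells held 94.5% and the highest held 109. The keratin-high gate had 29 Ccl20 UMIs, all in cells with low Hopx, and the ATI gate had 2. Ratios of these levels between gates rest on a handful of cells.

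Cx3cl1 showed no gate pattern. Its level was 0.0656 per 10000 (0.0617 to 0.0696) in the ATII gate, 0.0689 (0.0556 to 0.0846) in the ATI gate and 0.0606 (0.0522 to 0.0700) in the keratin-high gate, with no more than 6 UMIs in any cell. The ratio of ATI to ATII had an interval of 0.840 to 1.30 and that of keratin-high to ATII one of 0.787 to 1.08. Shares of 3.48%, 2.62% and 4.13% stood beside 3.70%, 7.73% and 2.86% in the reference cells. Fibroblast marker cells had Cx3cl1 at 0.142 per 10000, above each gate, and up to 5 UMIs in a cell, so they are no measure of free RNA for this gene, and its part was not tested.

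**Figure D3:**
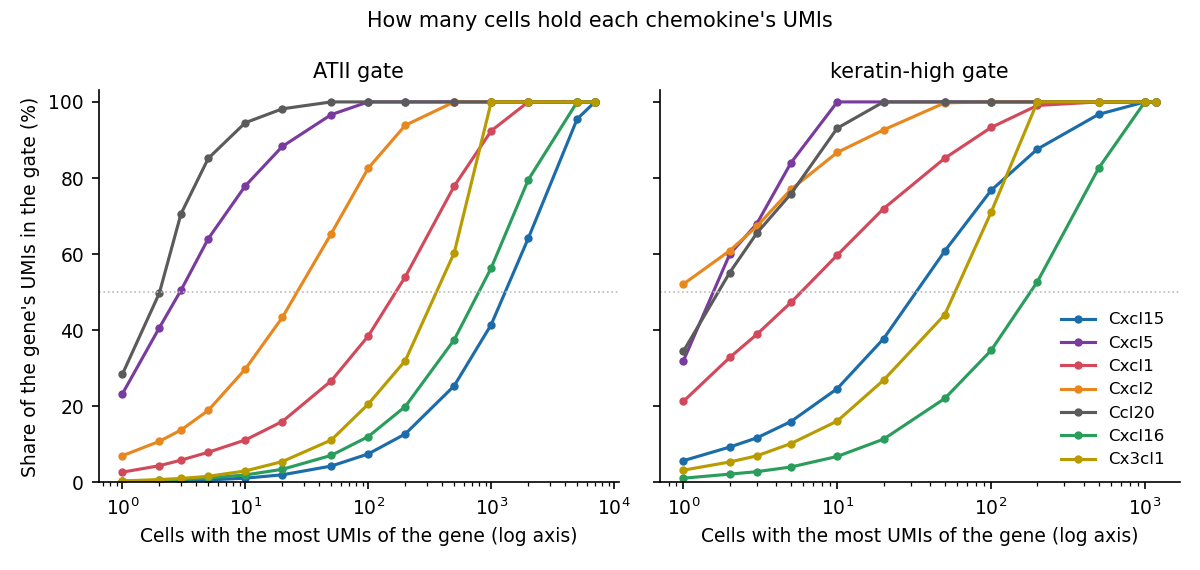
Cumulative share of each member's UMIs (percent) against the number of cells with the most UMIs of that gene, on a log axis, in the ATII gate and the keratin-high gate; the dotted line is 50%. In the ATII gate 3 cells reach 50% for Cxcl5 and for Ccl20, 27 for Cxcl2, 170 for Cxcl1, 823 for Cxcl16 and 1328 for Cxcl15.

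Read against all genes, a level 2-fold apart was not rare between gates. Among genes with at least 0.1 UMIs per 10000 on either side, 14.5% were at least 2-fold higher in the keratin-high than in the ATII gate and 5.17% at least 2-fold lower, with a counting interval that left out 1. Of the 4 members at that level, Cxcl16 was higher, Cxcl15 lower, and Cxcl1 and Cxcl2 neither. For the ATI against the ATII gate these shares were 11.5% higher and 5.52% lower, and of the members at that level Cxcl16 was higher and Cxcl15 and Cxcl1 lower. Cxcl5, Ccl20 and Cx3cl1 were under 0.1 in all 3 gates and enter neither count, and Cxcl2 was under it in the ATII and ATI gates and enters only the first. The median gene was itself higher than in the ATII gate, by 0.39 (keratin-high) and 0.38 (ATI) on the log2 scale. Relative to it, Cxcl16 was 3.60-fold and 2.78-fold higher and Cxcl15 23.7-fold and 14.3-fold lower.

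The pooled levels of Cxcl15 and Cxcl16 took opposite courses over bins of keratin and Hopx. Pooled levels do not tell a change in each cell from a change in the mix of cells. Over 6 bins of Krt8 plus Krt18, taking all filtered cells, Cxcl15 went from 68.8 and 70.9 per 10000 in the 2 lowest bins to 39.1, 15.2, 4.87 and 2.26, and Cxcl16 from 0.327 and 0.379 to 0.638, 1.01, 1.54 and 1.78. Over 4 bins of Hopx in cells under the keratin limit, Cxcl15 went 67.4, 37.1, 15.7 and 6.69, and Cxcl16 0.384, 0.708, 0.899 and 1.24. Cxcl1 followed Hopx downward, from 0.550 through 0.316 and 0.208 to 0.109, but had no single course along keratin, where it went from 0.685 to 0.272 and stood at 0.785 in the bin from 50 to 100. The Ccl20 level of 0.0670 per 10000 in the keratin bin from 25 to 50 came from 208 UMIs in 11 of 1527 cells, 179 of them in 3 cells, so no course is read from it. Without marker cells of other types the lowest keratin bin gave 81.5 for Cxcl15, 0.278 for Cxcl16 and 0.0864 in place of 1.35 for Cxcl2.

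**Figure D4:**
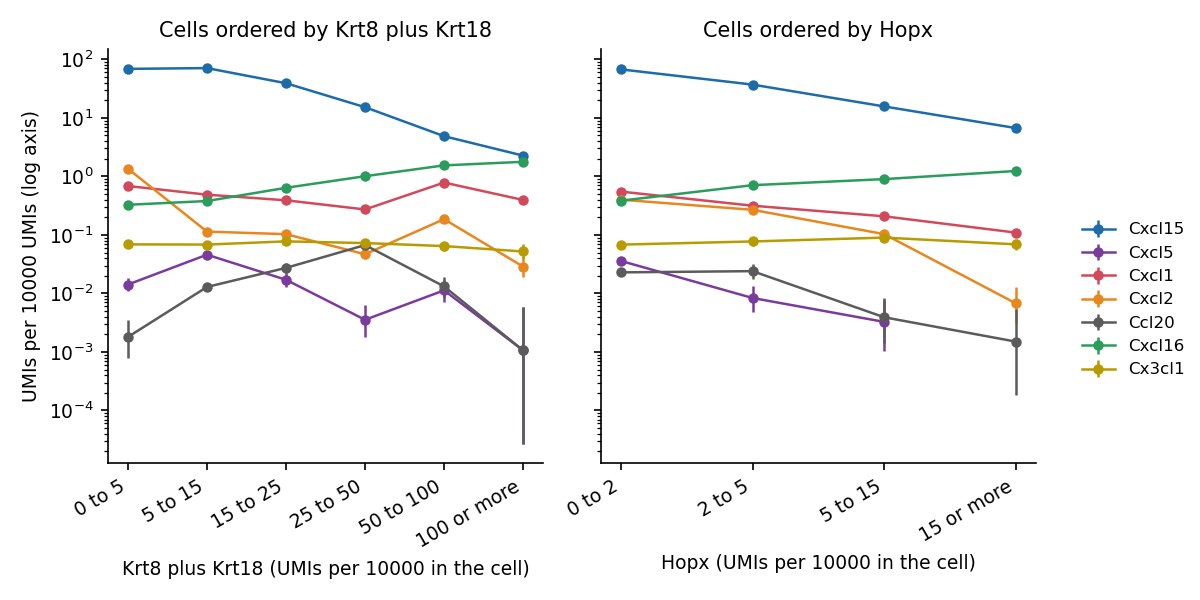
Level of each member (UMIs per 10000, log axis, bars 95% Poisson interval) in bins of Krt8 plus Krt18 over all filtered cells and in bins of Hopx over cells under the keratin limit; bins without a UMI are not drawn. Cxcl15 goes from 68.8 to 2.26 and Cxcl16 from 0.327 to 1.78 along keratin, and the high first point of Cxcl2 (1.35) includes myeloid marker cells.

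The genes whose pattern was nearest to Cxcl15 over 8703 thinned cells of the 3 gates were Sftpa1 (Pearson r 0.80), Slc34a2 (0.79), Lyz2 (0.78), Sftpc (0.77) and Lcn2 (0.77), by correlation of log levels among 7580 genes. Within the ATII gate alone these values were 0.49, 0.18, 0.57, 0.46 and 0.55. Sftpa1 and Sftpc encode surfactant proteins, Slc34a2 a phosphate carrier of ATII cells, and Lyz2 and Lcn2 antimicrobial proteins. For Cxcl16 the nearest were S100a6 (0.32), Krt7 (0.30), Lmo7 (0.30), Ndnf (0.28) and Anxa5 (0.28), and none of these was above 0.065 within the ATII gate. For Cxcl1 the highest value was 0.19, with Nfkbia, the inhibitor that NF-kB induces. The points are cells of the same pooled libraries, and values this low in sparse counts describe little.

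Some members shared cells more often than others. Among 6772 thinned ATII-gate cells, 721 had Cxcl1 and 133 had Cxcl2, and 59 had both, which is 4.17 times the product of the shares. Unthinned, the cells with both numbered 169, or 2.42 times the product. Of the 23 cells with Cxcl5, 11 also had Cxcl1 (4.49 times the product, and 2.76 times unthinned, from 46 of 70 cells). In the keratin-high gate 12 of the 18 cells with Cxcl2 also had Cxcl1, 8.16 times the product, and unthinned 30 of 45, 3.51 times. Cx3cl1 met Cxcl1 in 31 ATII-gate cells (1.23 times the product) and Cxcl2 in 2 (0.43 times). Unthinned, Cx3cl1 met Cxcl1 in 254 cells (1.17 times), Cxcl2 in 47 (1.19 times), Cxcl5 in 20 (2.12 times) and Ccl20 in 6 (1.65 times). After thinning, Cx3cl1 met Cxcl5 (0.80 cells expected) and Ccl20 (0.49 expected) in no cell. The pairs of Cx3cl1 with Cxcl2, Cxcl5 and Ccl20 thus turned with the depth, and no direction is read from them. Cxcl1 and Cxcl16 met in 101 ATII-gate cells, 0.93 times the product, and unthinned in 800, 1.08 times, so no direction is read from that pair either. Cells of different mice and depth enter these counts together.

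The state of the Lkb1 allele was then read from transcripts. The trapped allele splices the start of the Stk11 transcript onto GFP (green fluorescent protein), so GFP UMIs mark trapped transcripts and Stk11 UMIs mark untrapped ones. At least 1 GFP UMI and no Stk11 UMI was found in 3360 cells, the reverse in 3367 cells, both in 29 and neither in 5427. These cells do not stand for the Restored and NonRestored mice, and allele state, mouse and treatment cannot be told apart here. The gates differed in make-up, with 642 GFP-positive against 165 Stk11-positive cells in the keratin-high gate and 1742 against 2353 in the ATII gate.

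Over all cells Cxcl15 was at 34.6 per 10000 in GFP-positive and 70.1 in Stk11-positive cells (2.02-fold lower, 2.01 to 2.03), and Cxcl1 at 0.323 and 0.747 (2.32-fold lower, 2.22 to 2.42). Of the 4 members over the minimum level of 0.1 on both sides these were the 2 at least 2-fold lower. None was 2-fold higher. Over all genes at that level on either side, a wider set, 1.39% were at least 2-fold lower and 2.61% higher. Cxcl5, under that level on both sides, was 4.91-fold lower (3.77 to 6.46), from 69 UMIs in 23 cells against 322 in 55, of which 10 cells held 81.2% and 74.8%. Cxcl15 was under the fold limit when cells counted equally (ratio 0.513) or were thinned (0.514). Marker cells of other types numbered 10 among the GFP-positive and 87 among the Stk11-positive cells, with summed fibroblast markers at 0.211 and 7.95 per 10000 and summed myeloid markers at 0.133 and 0.371. Without them the differences were 2.07-fold for Cxcl15 and 2.34-fold for Cxcl1. Other marker sums moved with the same comparison, and cells with Scgb3a2, a club gene, are not among the marker cells left out. Summed ATII markers were lower in GFP-positive cells (1245 against 1975), summed club markers were lower (0.456 against 12.2) and summed keratin-high markers were higher (51.8 against 19.7), and their part was not tested. Within the ATII gate no member at that level passed in either direction (background 1.96% higher and 0.558% lower). Cxcl15 was at 58.6 against 86.8 there, a ratio of 0.675 (0.672 to 0.678), with cell medians of 48.6 and 74.3. Cxcl1 was at 0.361 against 0.687, a ratio of 0.526 (0.497 to 0.556), with a UMI in 8.62% (7.34 to 10.0) of 1729 and 14.4% (13.0 to 15.9) of 2331 thinned cells. Without the top 1% of cells the Cxcl1 ratio was 0.476, past the fold limit.

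The remaining members of the ATII gate differed in size and direction. Cxcl16 was higher in level in GFP-positive cells, at 0.400 against 0.303 (ratio 1.32, 1.24 to 1.41). Its shares of thinned cells overlapped, at 15.8% (14.1 to 17.6) and 13.9% (12.5 to 15.3). The median gene was itself 0.18 higher on the log2 scale in this comparison. Cxcl2 was at 0.0908 against 0.102 (ratio 0.890, 0.786 to 1.01). Cxcl5 had 46 UMIs in 14 GFP-positive cells and 280 UMIs in 40 Stk11-positive cells, with 2 cells holding 50% on either side. Ccl20 was at 0.0223 against 0.0359 (ratio 0.621, 0.489 to 0.786), from 7 and 10 cells, and Cx3cl1 at 0.0592 against 0.0688 (ratio 0.860, 0.737 to 1.00). Summed ATII markers were lower in GFP-positive than in Stk11-positive cells of this gate (1853 against 2333 per 10000). Most of the sum was Sftpc (1357.5 against 1704.8), a gene of the gate. The single ATII markers did not all move together. Sftpa1 (160 against 230) and Lyz2 (96.5 against 168) were lower, and Sftpb, Slc34a2, Abca3 and Etv5 slightly so. Sftpd (ratio 1.26), Napsa (27.1 against 25.3) and Lamp3 (8.15 against 7.61) were higher. Summed keratin-high markers were higher (20.2 against 10.5). The part of these markers in the differences of this gate was not tested.

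In the keratin-high gate Cxcl15, Cxcl1 and Cxcl16 were over the minimum level on both sides. Of these, Cxcl1 was at least 2-fold lower in GFP-positive cells, and none was 2-fold higher. Over all genes at that level on either side, a wider set, 2.34% were at least 2-fold lower and 2.46% higher. Cxcl1 was at 0.304 per 10000 (0.280 to 0.329) in GFP-positive and 2.83 (2.68 to 2.99) in Stk11-positive cells, 9.32-fold lower, but 10 cells held 89.1% of the 1314 Stk11-positive UMIs and 2 of them held 50%. Without the top 1% on each side, which removes only 2 of the 165 Stk11-positive cells, the levels were 0.183 and 1.43, so that few cells carry this value too, and thinned cells with a UMI were 7.57% (5.63 to 9.91) of 634 and 16.0% (10.7 to 22.5) of 163. Cxcl2 and Cx3cl1 reached the minimum level only in Stk11-positive cells, the side where they were high, so their values are a description and enter no count. Cxcl2 was 9.94-fold lower (0.0594 against 0.590), with 220 of the 274 Stk11-positive UMIs in 1 cell, and fell under the minimum level without the top cells. Cx3cl1 was 2.07-fold lower, from 99 and 48 UMIs, at shares of 4.10% and 4.91% that lie in the range of the reference cells. Ccl20, under the minimum level on both sides, was 3.97-fold lower (1.72 to 9.11), from 14 UMIs in 6 cells against 13 in 4. Of those 13, 10 lay in 1 cell, so this value rests on few cells too.

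Cxcl16 stood on the other side in this gate than in the ATII gate, a difference that was not tested. In keratin-high cells it was lower when GFP was present, at 1.45 against 2.42 (ratio 0.599, 0.559 to 0.642), with a UMI in 45.9% (42.0 to 49.9) against 64.4% (56.6 to 71.7) of thinned cells. Cxcl15 was at 4.16 against 2.90 (ratio 1.44, 1.36 to 1.52), but its share of thinned cells was 36.8% against 42.9%, and 10 cells held 61.0% of the Stk11-positive UMIs. The share and the level thus pointed in opposite directions, and no order is read from them. Markers of other states also differed between the GFP-positive and Stk11-positive cells of this gate. Summed ATII markers were at 330 against 272 per 10000, most of it Sftpc (196 against 144). Single ATII markers went both ways. Slc34a2 was at 2.09 against 0.737 and Lamp3 at 1.26 against 0.638, while Sftpa1 was nearly level (32.7 against 31.8). Sftpb (60.3 against 70.3) and Lyz2 (4.74 against 5.14) were lower in GFP-positive cells. Summed ciliated markers were at 3.14 against 1.15, nearly all of it Tppp3 (3.14 and 1.14), with Foxj1, the defining ciliated factor, at 4 and 2 UMIs. Their part in the differences of this gate was not tested.

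In the ATI gate, with 242 GFP-positive and 266 Stk11-positive cells, Cxcl15 was at 4.28 against 10.2 per 10000 (2.39-fold lower, 2.27 to 2.53) and Cxcl1 at 0.0779 against 0.199 from 34 and 88 UMIs. Of the members over the minimum level on both sides, Cxcl15 and Cxcl16, Cxcl15 was at least 2-fold lower and none was 2-fold higher. Over all genes at that level on either side, a wider set, 1.08% were at least 2-fold lower and 1.54% higher. Cxcl1 reached that level only in Stk11-positive cells, where it was high, so its difference (2.56-fold, 1.70 to 3.92) is a description. Summed ATII markers were lower on the same side (494 against 795), among them Sftpc (398 against 622) and Lyz2 (2.95 against 15.8), and their part was not tested. For Cxcl15, 10 cells held 75.0% of the GFP-positive UMIs. Without the top 1% the difference was 4.24-fold. For Cxcl1, 50% of the UMIs lay in 1 GFP-positive and 3 Stk11-positive cells, and stricter gates, with 24 and 40 cells, reversed its direction. Cxcl16 was level, at 1.26 in both (ratio 0.994, 0.881 to 1.12).

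**Figure D5:**
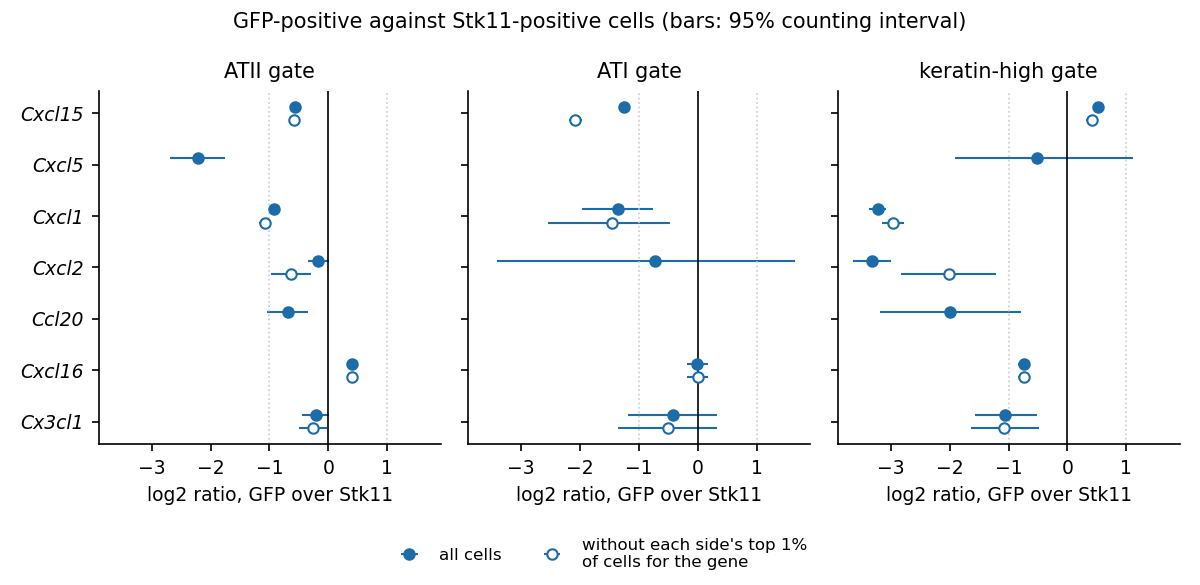
Log2 ratio of GFP-positive over Stk11-positive cells for each member in the 3 gates, with 95% counting intervals, for all cells (filled) and without the 1% of cells on each side with the most UMIs of the gene (open); dotted lines mark 2-fold, and ratios without a finite interval are not drawn. Cxcl1 lies left of 0 in each gate, and Cxcl16 lies right of 0 in the ATII gate and left of it in the keratin-high gate.

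Cells with at least 2 UMIs of Scgb3a2, a secretoglobin of club cells in the airway, numbered 15. Of these, 7 fell in the ATII gate, none in the ATI or keratin-high gate and 8 outside the gates. The 7 ATII-gate cells had between 63 and 400 Cxcl15 UMIs each, and their level of 65.4 per 10000 was 0.885 times (0.841 to 0.931) that of the 6921 ATII-gate cells without Scgb3a2, with the opposite sign under 4 of the other settings, so no direction is given. They had 2 Cxcl1 UMIs, 15 Cxcl16 UMIs and none of Cxcl5, Cxcl2 or Ccl20. The 2 Cxcl1 UMIs make a level of 0.0879 against 0.512 (5.82-fold lower, 1.61 to 48.1), past the fold limit as 1.34% of genes were in this direction, but Cxcl1 reached the minimum level only in the cells without Scgb3a2. In 5 of the cells outside the gates the summed club markers were above 1000 per 10000, and these had 0, 4, 64, 231 and 262 Cxcl15 UMIs. Those with 64 and 231 also had Cxcl5, at 2 and 6 UMIs. With 15 cells these values describe single cells.

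Other genes of the pathway were read from lists. Of 16 NF-kB factors and targets, 14 were at the minimum level in the keratin-high or ATII gate, 6 of them at least 2-fold higher in the keratin-high gate and 1 lower (against 14.5% and 5.17% of all genes), with a median log2 ratio of 0.93 against 0.39 over all genes. Of the 6, Relb (0.145 to 0.456 per 10000), Nfkb2 (0.107 to 0.394), Rela (0.227 to 0.490) and Tnip1 (0.126 to 0.313) were at that level in both gates. Tnfaip3 (0.040 to 0.150) and Nfkbie (0.0195 to 0.108) reached it only in the keratin-high gate, so that being called higher came with their entry. Nfkbiz, an inducible NF-kB cofactor, was the lower (0.640 to 0.270). Between the ATI and ATII gates 12 were at that level, with Traf1 higher (0.235 to 0.858) and Nfkbiz (0.640 to 0.186) and Birc3 (0.268 to 0.0734, at that level only in the ATII gate) lower, against 11.5% and 5.52% of all genes. None of the 20 chemokine receptors reached the minimum level in either comparison, Cxcr2 included.

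Of 13 other epithelial cytokines, 5 were at the minimum level in the keratin-high or ATII gate, with 1 higher and 1 lower in the keratin-high gate (against 14.5% and 5.17% of all genes) and a median log2 ratio of -0.41 against 0.39 over all genes. Lif was at 0.749 against 0.0322 per 10000 and Il6 at 0.0721 against 0.149, so each reached that level only in the gate where it was high, and their differences are a description. Il33, an alarmin, stood at 4.05 in the ATII, 3.06 in the keratin-high and 0.471 in the ATI gate. Between the ATI and ATII gates 4 cytokines were at the minimum level, all of them lower in the ATI gate (against 5.52% of all genes). Their median log2 ratio was -2.81, against 0.38 over all genes. Besides Il33 these were Csf2, Il34 and Il6, which reached that level only in the ATII gate, so their differences are a description. In GFP-positive against Stk11-positive keratin-high cells 5 were at the minimum level, with 1 higher and 2 lower (against 2.46% and 2.34% of all genes). Il33 was 9.91-fold higher (3.82 against 0.386). Csf2 (0.0936 against 0.872) and Tnf (0.0352 against 0.151) were the lower, and both reached that level only in Stk11-positive cells, where they were high. Of the other CXC chemokines, Cxcl17, an epithelial chemokine of mucosal surfaces, was at 0.505 in the ATII, 0.219 in the ATI and 0.553 in the keratin-high gate, and was 2.07-fold lower in GFP-positive cells of the ATII gate. Pf4, a neighbour of Cxcl5 and Cxcl15, was at 0.167, 0.0157 and 0.0440.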

How the data were processed

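Neoplastic cells of 6 mice were profiled by 10x 3′ single-cell sequencing. The authors ran Cell Ranger 3.0.2 on mm10 and deposited raw UMI counts, not normalized, in 1 matrix of 16017 cells and 266713311 UMIs. The gene annotation release is not given in the sources used here. A level divides a gene's UMIs in a gate by all UMIs of that gate, times 10000, which gives deep cells more weight. Intervals at 95% are exact (Poisson for levels, conditional binomial for ratios, Clopper-Pearson for shares), and PCR and cell-to-cell spread are outside them. A gene passed the fold limit at 2-fold with an interval without 1 and at least 0.1 UMIs per 10000 on either side. Shares were computed after thinning cells to 5000 UMIs, which left out 1099 shallower cells. Likeness used log(1 + level) of thinned cells. Doublets were kept, and leaving out the 6% of cells with the most UMIs was an alternative. Members, gates and lists were chosen with earlier results of these data known. The text names the members, genes of the lists, gate and marker genes, and the 5 genes most like each member found in at least 5% of thinned gated cells. The ratio code was tested on simulated data. The work used numpy 2.4.6 and scipy 1.17.1 under Python 3.11.15, with pandas 2.3.3 for tables and matplotlib 3.10.9 for figures. Part of the genotype that all mice share is not reported here.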

Additional observations from a re-analysis of the deposited data

Results flagged for a closer look

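The 3834 cells that failed the filters on genes and mitochondrial UMIs enter no comparison, and 6 of the 7 members had UMIs there above the limit that a count of 0 allows (0.00314 UMIs per 10000). Cxcl15 was at 21.1 UMIs per 10000 in these cells, Cxcl5 at 0.00733 (7 UMIs), Cxcl1 at 0.327, Cxcl2 at 0.18, Cxcl16 at 0.226 and Cx3cl1 at 0.0492.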

How the results depend on the processing

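Counts of members past the fold limit were recomputed under 10 other settings and 1 more chosen after seeing the data, which leaves out the 1% of cells on each side with the most UMIs of the gene. Of 154 such counts, 135 stayed within 1.5 times the reported value. In the keratin-high against the ATII gate, weighting cells equally, which has no interval, gave 2 members higher (Cxcl2 joined Cxcl16) in place of 1. Without a minimum level 3 members were lower there in place of 1, 5 in place of 2 in the ATI against the ATII gate, and 1 in place of 0 for GFP against Stk11 in the ATII gate. In Scgb3a2 cells of the ATII gate the 1 lower member (Cxcl1, from 2 UMIs) became 0 with cells weighted equally or thinned to 5000 UMIs, and over all GFP-positive against Stk11-positive cells 2 lower became 1 under the same settings. In the ATII gate 0 lower members became 1 (Cxcl1) without surfactant genes and Lyz2 in the denominator, relative to the median gene, and without the top 1% of cells. In the keratin-high gate 3 lower (of which Cxcl2 and Cx3cl1 reached the minimum level only in Stk11-positive cells) became 1 under stricter gates, which also gave 1 higher (Cxcl15), and 1 without the top 1%. In the ATI gate 2 lower (Cxcl1 among them, which reached the minimum level only in Stk11-positive cells) became 1 when thinned, without the 6% of cells with the most UMIs, under stricter gates and without the top 1%, and stricter gates gave 1 higher. That was Cxcl1, whose log2 ratio turned from negative to 5.13 on 24 and 40 cells. The causes of these shifts were not tested, except that stricter gates leave fewer cells. Of 410 single log2 ratios, 140 besides that 1 lay outside the counting interval of the reported value, and 29 had the opposite sign to the reported value, this 1 among ratios past the fold limit and 28 among ratios that were not, such as Cxcl1 and Cxcl2 in the keratin-high against the ATII gate. For rare members the limit was the number of cells with any UMI. No paired analysis was possible because no map from the cells of the pooled matrix to mice was used here.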
